A study of Mus musculus with 9 samples.

Results

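The transcripts described here are those of 29 genes that make, sense, move, store and export cholesterol, picked by symbol from the 27179 genes of a deposited liver RNA-seq table. They comprise 18 synthesis enzymes, 1 isoprenoid branch enzyme, 4 sterol sensing proteins, 2 proteins of intracellular transport and uptake control, and 4 of esterification and export. The rule goes by gene symbol alone, although the list was drawn up with earlier results of these data known. All 29 passed the filter on low values, a mean over the 9 libraries of 10 normalized counts or more, and entered every comparison below.

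The study compared livers of aged C57BL/6J mice, wild type by genotype, to see what loss of Ccnd1 in hepatocytes does. Ccnd1 encodes cyclin D1, a protein that drives entry into the cell cycle. Every mouse received, at 17 months, a retro-orbital injection of an AAV8 vector in which the TBG promoter, active in hepatocytes, drives saCas9 (a small Cas9 nuclease) and a U6 promoter drives a guide RNA. The guide was directed at Ccnd1 (sgCcnd1, 5 libraries, named E to I here) or at the Rosa26 locus, a cutting control (sgRosa26, 4 libraries, named A to D). The mice ate normal chow, and the m-lobe of the liver was taken 3 weeks after injection for poly(A) RNA-seq. Both groups therefore carried AAV8, saCas9 and a guide. The labels name no batch, sex or harvest time and do not say how the libraries pair, so p-values measure the spread between these 9 libraries.

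Cholesterol is built from acetyl-CoA. The mevalonate enzymes make isoprenoid units, which squalene synthase joins head to head, and a series of sterol enzymes then shapes the ring system. When sterol in the endoplasmic reticulum is low, SCAP escorts the transcription factor SREBP2 (gene Srebf2) to the Golgi for cleavage, and the released factor raises transcription of the synthesis genes. INSIG proteins hold SCAP back when sterol is plentiful, and LXR, activated by oxidised sterols, raises transcription of the exporters. The liver is a main site of synthesis and the organ that passes cholesterol into bile.

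Sequences just before the start sites of 4 synthesis genes are shown because SREBP2 works with partner factors at promoters. Across the 9 livers Hmgcs1, Msmo1 and Cyp51 had much the same median Pearson r with the other synthesis enzymes (0.78, 0.78 and 0.77). Ebp had a lower one (0.35, or 0.60 with each group centred on its own mean). Whether promoter letters relate to this was not tested. The sequences come from RefSeq (GRCm38.p6), give the 160 bases before the annotated start, and read 5′ to 3′ on the gene's strand. Hmgcs1 is at chr13:119690191-119690350 on the plus strand, Msmo1 at chr8:64733579-64733738 on the minus strand, Cyp51 at chr5:4104698-4104857 on the minus strand and Ebp at chrX:8193513-8193672 on the minus strand. Capitals mark matches, on either strand, to a sterol regulatory element (TCACNCCAC), a CCAAT box (CCAAT) or a GC box (GGGCGG).
Hmgcs1: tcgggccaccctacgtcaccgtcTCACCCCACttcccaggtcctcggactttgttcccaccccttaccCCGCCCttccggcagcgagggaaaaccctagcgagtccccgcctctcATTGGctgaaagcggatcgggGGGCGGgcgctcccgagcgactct
Msmo1: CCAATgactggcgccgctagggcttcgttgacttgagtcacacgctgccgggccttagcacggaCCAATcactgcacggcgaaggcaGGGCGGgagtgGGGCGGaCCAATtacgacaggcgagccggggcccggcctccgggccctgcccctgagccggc
Cyp51: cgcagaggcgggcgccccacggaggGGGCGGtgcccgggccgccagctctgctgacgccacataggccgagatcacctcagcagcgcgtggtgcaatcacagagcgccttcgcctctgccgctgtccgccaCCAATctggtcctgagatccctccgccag
Ebp: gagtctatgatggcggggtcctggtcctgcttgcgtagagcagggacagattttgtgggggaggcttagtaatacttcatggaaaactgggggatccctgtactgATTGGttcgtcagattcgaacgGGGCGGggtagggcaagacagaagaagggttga

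Promoter windows, from 250 bases before to 50 after the start, were found in the RefSeq table for 24 of the 29 genes and for 15 of the 18 synthesis enzymes. Sqle, Fdps, Fdft1, Stard4 and Soat2 had no window. The sterol regulatory element letters were found in 1 of these 24 genes, Hmgcs1, where they begin 137 bases before the start. Only the form TCACNCCAC was searched, so an element spelled otherwise was neither marked nor counted, and its absence cannot be read from these counts. The same letters were in the windows of 1.45% of 10140 genes that entered the comparisons. CCAAT was present in 21 of the 24 genes (87.5%), including 14 of the 15 enzyme genes (93.3%), against 42.8% of the 10140 genes. GGGCGG was present in 20 of the 24 genes (83.3%) and likewise in 14 of the 15 enzyme genes (93.3%), against 66.8% of the 10140 genes. No 2 matches in a window of the 24 genes shared a base. A match describes letters only, not a bound site.

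Libraries held 10.8 to 20.2 M reads assigned to genes (M, mega). Ccnd1 itself stood at 684, 800, 625 and 867 normalized counts in A to D and at 428, 347, 370, 339 and 325 in E to I. Its log2 fold change was -1.03 (SE 0.115, limma adjusted p = 0.0116), and it was the only gene of 12993 past the limma threshold of 0.05 (0.00770%). It was called as well by edgeR (adjusted p = 0.00893) and DESeq2 (adjusted p = 9.13e-12). Leaving out 1 library kept its log2 fold change between -1.11 and -0.96, with limma adjusted p from 0.00972 to 0.0852, and no gene passed in the limma fits without B, D, F, H or I. Library H held almost no reads of 4 Y-linked genes (summed 2.00 normalized counts, against 1619 to 2834 elsewhere). Log2 fold changes of cholesterol genes without it are given below where leaving it out changed the log2 value itself by a factor above 1.5 or turned its sign. All 8 hepatocyte markers were present in every library, with summed levels that overlapped between groups. Their sum was highest in F (2.124e+06) and lowest in H (1.648e+06), I (1.743e+06) and B (1.760e+06). Kupffer cell and macrophage markers summed to 3397 to 4123 in sgRosa26 and 2900 to 3666 in sgCcnd1 (6 of 8 lower on average, 2 at an unadjusted limma p under 0.05, none past adjustment), and T, NK and B cell markers to 111 to 213 and 56.8 to 200 (6 of 6 lower, 2 and none). Stellate cell and fibroblast markers summed to 3425 to 5685 and 3118 to 4668 (5 of 6 lower, 2 and none), and cholangiocyte markers to 928 to 1906 and 750 to 1165 (5 of 5 lower, 1 and none). Endothelial markers summed to 1844 to 2828 and 2076 to 2970 (4 of 6 lower). Red blood cell markers summed to 1134 to 2166 and 1799 to 2087 (1 of 3 lower). No marker of these last lists had an unadjusted limma p under 0.05. Over all genes tested, 11.0% had such a p. No marker of these lists was at 0 in all libraries, and their part in the values below was not tested. Clock genes also differed between the groups before adjustment: 5 of 14 were higher and 2 lower in sgCcnd1 at an unadjusted limma p under 0.05 (50%, against 11.0% of all genes tested), none past adjustment. Npas2, a partner of the clock activator Bmal1, was at 83.6 to 178 normalized counts in sgRosa26 and 28.4 to 72.4 in sgCcnd1, without overlap (log2 fold change -1.29, adjusted p = 0.225 by limma and 0.00340 by DESeq2). Bmal1 had a log2 fold change of -0.44, and Dbp, Nr1d2, Tef, Nr1d1 and Ciart, which run opposite to it over the day, of 1.08, 0.44, 0.41, 0.41 and 1.07. These genes were picked out after their values were seen. Of 10 feeding-induced genes 1 was higher at that level (Me1, 0.73, without overlap), and of 9 fasting-induced genes 1 (Angptl4, 0.97), none past adjustment. Leaving out 1 library gave log2 fold changes of 0.42 to 0.86 for Me1, 0.67 to 1.23 for Angptl4 and 0.25 to 0.58 for Nr1d1. The labels give no time of harvest, so a difference in time of day and one between the guides cannot be told apart for these genes.

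No cholesterol gene passed the limma threshold in either direction. The lowest adjusted p among the 29 was 0.271 by limma, 0.329 by edgeR and 0.128 by DESeq2, which called 0.900% of all genes tested. At an unadjusted limma p under 0.05, 2 genes were higher in sgCcnd1 (Stard4 and Ebp) and 1 was lower (Mvk), or 10.3% of the 29, against 11.0% of all 12993 genes tested (5.22% higher and 5.74% lower). The share was thus near the background. Those counts moved when 1 library was left out: 1 gene was higher without A, B, F or G, none was lower without B, E, H or I, 2 were lower without D and 3 without F. The median log2 fold change was 0.02 over the 29 genes and 0.01 over all genes, with 15 values above 0 and 14 below. Over the 29 genes this median ran from -0.043 (without F) to 0.075 (without C) when 1 library was left out. With quantile normalization it was -0.048.

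The intervals bound the size of any group difference. The 95% limma interval of each of the 29 log2 fold changes lay within -1 and 1, so a 2-fold rise or drop of the group mean fell outside it for every gene. For 25 of the 29 the interval lay within a 1.5-fold difference either way. Without library H the log2 fold changes of Stard4, Ebp and Mvk were 0.52, 0.29 and -0.22. Those of Hmgcs1, Mvd, Dhcr7, Lss and Abca1 were nearer 0, at -0.12, -0.097, -0.037, -0.0060 and 0.031. Those of Acat2, Fdps, Cyp51, Hsd17b7, Sc5d and Scap were farther from 0, at 0.25, 0.14, 0.084, 0.073, 0.090 and 0.083. Idi1, Sqle and Nsdhl turned from below to above 0, to 0.042, 0.056 and 0.034. In bulk tissue, fewer cells of a type and less RNA per cell cannot be told apart.

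**Figure D1:**
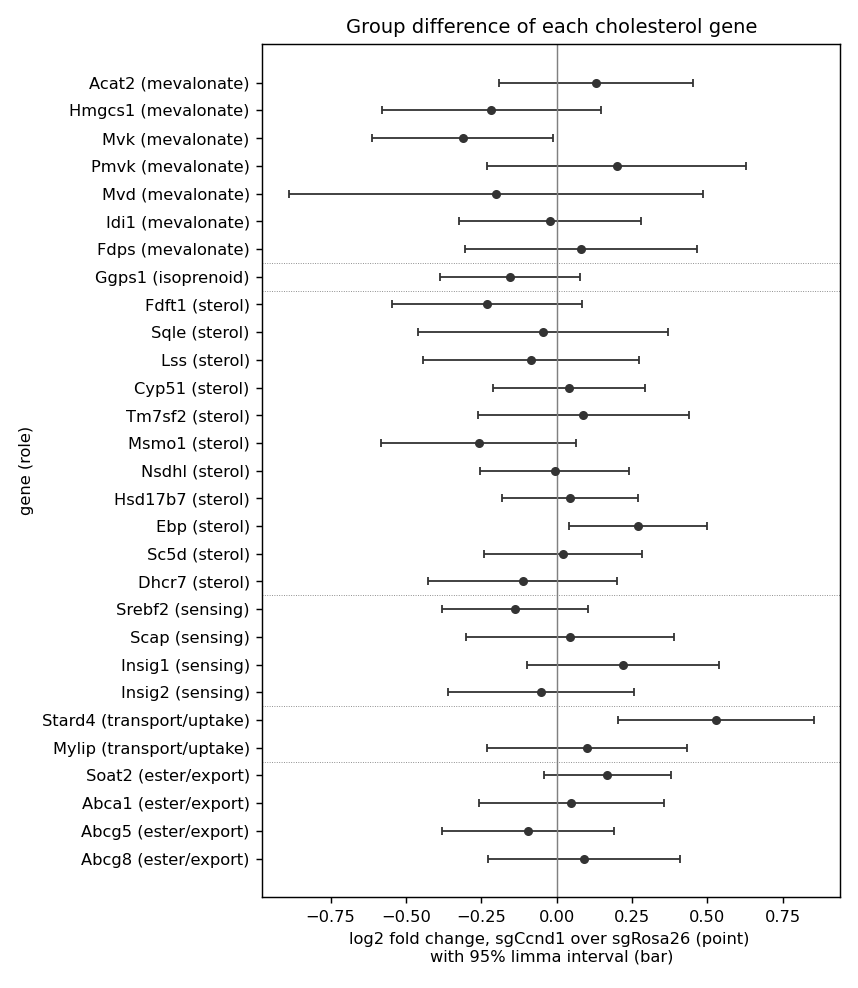
Log2 fold change of each of the 29 cholesterol genes, sgCcnd1 (n = 5) over sgRosa26 (n = 4), on the x axis, with 1 gene per line grouped by role; points are limma estimates and bars their 95% intervals. Values run from -0.31 (Mvk) to 0.53 (Stard4), and the intervals of Stard4, Ebp and Mvk alone leave out 0 before adjustment.

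Among the 7 mevalonate genes, 3 fold changes were above 0 and 4 below, with a median of -0.02. Hmgcs1, which encodes the cytosolic HMG-CoA synthase (Entrez 208715, chr13:119690351-119708260 on GRCm38.p6), stood at 11920, 15394, 14634 and 11235 normalized counts in A to D and at 12138, 15068, 12968, 8604 and 9157 in E to I. Libraries H and I were the 2 lowest of the 9, and the other 3 sgCcnd1 libraries lay within the control range. The group means were 13296 ± 2027 (SD, n = 4) and 11587 ± 2699 (SD, n = 5), with a log2 fold change of -0.22 (95% interval -0.58 to 0.15, limma adjusted p = 0.656).

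Mvk, mevalonate kinase, was at 584, 526, 470 and 437 normalized counts in A to D and at 388, 511, 460, 317 and 370 in E to I. F and G lay inside the control range, while E, H and I lay below all 4 controls. Its log2 fold change of -0.31 (95% interval -0.61 to -0.01) had an unadjusted limma p of 0.0428 and an adjusted p of 0.438. Over the alternatives its adjusted p ran from 0.348 to 0.700.

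Mvd, which encodes the mevalonate diphosphate decarboxylase, had the widest spread of the 29 genes, a coefficient of variation of 36.2% over 9 libraries. Its counts were 708, 1160, 756 and 892 in A to D and 1038, 1369, 836, 558 and 356 in E to I. The highest and the lowest library were both from sgCcnd1 and differed 3.84-fold, so the group difference (log2 fold change -0.20, 95% interval -0.89 to 0.48) was the least precisely known. Leaving out library I gave the upper end of its leave-one-out range, -0.42 to 0.06.

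Fdps, the farnesyl diphosphate synthase, stood at 6448, 8374, 7149 and 5979 in A to D and at 7758, 10871, 7542, 6283 and 5304 in E to I. Library F was again the highest and I the lowest, on either side of the control range. Idi1, the isopentenyl diphosphate isomerase, did not share that order. It stood at 2163, 1536, 2176 and 1412 in A to D, with A and C high and B and D low, and at 1868, 1838, 1923, 1470 and 1739 in E to I. The remaining mevalonate genes, Acat2 (the thiolase that makes acetoacetyl-CoA) and Pmvk (phosphomevalonate kinase), ranged over all 9 libraries from 1346 to 2437 and from 1092 to 2237 normalized counts, with log2 fold changes of 0.13 and 0.20. Without library F these were 0.035 and 0.054, and without B that of Pmvk was 0.36. Ggps1, which lengthens farnesyl diphosphate for protein prenylation, ranged only from 120 to 160 and had a log2 fold change of -0.16 (95% interval -0.39 to 0.08).

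For the 11 squalene and sterol genes, 5 fold changes were above 0 and 6 below, with a median of -0.01. Fdft1, squalene synthase and the first enzyme committed to sterols, stood at 3790, 5131, 4592 and 3789 in A to D and at 3853, 4559, 4166, 3056 and 2910 in E to I. The pattern is that of Hmgcs1, with B, C and F high and H and I low. Sqle, squalene epoxidase, stood at 2589, 2723, 2983 and 2116 in A to D and at 3136, 3529, 2640, 1891 and 1780 in E to I. Its sgCcnd1 libraries lay above and below all controls (E and F above, H and I below), and its group means of 2603 and 2595 differed by far less than either SD (363 and 763).

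Msmo1, a methylsterol oxidase, had counts of 4285, 4688, 5034 and 3833 in A to D and of 3816, 4925, 4196, 3069 and 2897 in E to I. E, H and I lay below all 4 controls, and the log2 fold change was -0.26 (95% interval -0.58 to 0.06, limma adjusted p = 0.540). Dhcr7, which reduces the last double bond on the way to cholesterol in one branch of the pathway, had counts of 3451, 3608, 4064 and 2745 in A to D and of 3463, 3961, 3424, 2566 and 2670 in E to I. H and I were lowest once more, and D was the lowest control, as it was for Hmgcs1, Fdft1 and Sqle. The log2 fold change of Dhcr7 was -0.11 (95% interval -0.43 to 0.20).

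Ebp encodes the sterol isomerase that moves a double bond within the ring (Entrez 13595, chrX:8185329-8193512 on GRCm38.p6), and its group values were the farthest apart among the sterol enzymes. It stood at 3214, 3302, 3749 and 3645 normalized counts in A to D and at 4139, 4642, 4852, 3983 and 3442 in E to I. In 4 of the 5 sgCcnd1 libraries it was above every control, and in library I it lay within the control range. The means were 3477 ± 259 (SD, n = 4) and 4212 ± 558 (SD, n = 5). In limma the log2 fold change was 0.27 (95% interval 0.04 to 0.50), with an unadjusted p of 0.0249 and an adjusted p of 0.382. The adjusted p ran from 0.297 to 0.642 over the alternatives.

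In Tm7sf2, a sterol reductase, the low libraries were A (2010) and I (2054), and the other 7 lay between 2915 and 3358. Nsdhl, a sterol dehydrogenase of the demethylation complex, was highest in library C (2749), and the other 8 lay between 1927 and 2594. Lss (lanosterol synthase) ranged from 1242 to 1950 over the 9 libraries, Cyp51 (lanosterol demethylase) from 3787 to 5393, Hsd17b7 (a sterol ketoreductase) from 1483 to 2016 and Sc5d (a sterol desaturase) from 12264 to 17745. For these 6 genes the log2 fold changes ran from -0.09 (Lss) to 0.09 (Tm7sf2), and every limma adjusted p was 0.879 or higher. Reads of Fdft1, Lss and Tm7sf2 are less certain because another annotated gene overlaps each of them (Ctsb, 4930483K19Rik and Vps51) and the counting strand is not given in the sources used here. The same holds for Acat2 (Gm20591), Mvd (Gm51557), Fdps (Gm22935), Srebf2 (Mir33) and Insig1 (Gm35223).

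The 4 sensing genes had log2 fold changes from -0.14 to 0.22, none with an unadjusted limma p under 0.05. Srebf2, the gene of SREBP2, stood at 1725, 1379, 1361 and 1139 in A to D and at 1328, 1332, 1303, 1230 and 1116 in E to I. All sgCcnd1 libraries except I fell inside the control range, and the log2 fold change was -0.14 (95% interval -0.38 to 0.10, limma adjusted p = 0.668). It was -0.033 without library A and -0.23 without D, the highest and the lowest control. Insig1, itself raised by SREBP2 as part of the feedback, stood at 5025, 6769, 5995 and 7867 in A to D and at 8166, 9312, 7089, 6149 and 6575 in E to I. E and F exceeded every control and the other 3 did not, with a log2 fold change of 0.22 (95% interval -0.10 to 0.54, limma adjusted p = 0.603). Without library A it was 0.11, and without D 0.33. Scap ranged from 2197 (I) to 3770 (E), both in sgCcnd1.

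Insig2 had a different shape. Library A was lowest (2390) and B highest (4296), with C and D at 3469 and 3754, and the 5 sgCcnd1 libraries kept between 2977 and 3508. The spread was thus larger in the controls (SD 802, n = 4) than in sgCcnd1 (SD 239, n = 5), a contrast that was noticed in the values and not tested. Its log2 fold change was -0.05 (95% interval -0.36 to 0.26).

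Stard4 gave the largest fold change of the 29 genes and was the only one whose groups did not overlap (1 of 29, 3.45%, against 3.89% of all genes tested, 1.92% with sgCcnd1 higher). It encodes a soluble protein that carries sterol between membranes (Entrez 170459). It stood at 1156, 652, 1074 and 729 normalized counts in A to D and at 1310, 1201, 1259, 1286 and 1270 in E to I. The 5 sgCcnd1 libraries lay within a narrow band, and the controls split into A and C, just under that band, and B and D, far below it. The means were 903 ± 249 (SD, n = 4) and 1265 ± 40.4 (SD, n = 5). The log2 fold change was 0.53 (SE 0.150, 95% interval 0.20 to 0.85), with an unadjusted limma p of 0.00403 and an adjusted p of 0.271, which misses the threshold. Leaving out 1 library at a time moved the log2 fold change between 0.39 and 0.66, and over all alternatives the adjusted p ran from 0.128 (DESeq2) to 0.563. Mylip, a ubiquitin ligase that marks lipoprotein receptors for degradation, ranged from 118 to 205 with a log2 fold change of 0.10.

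**Figure D2:**
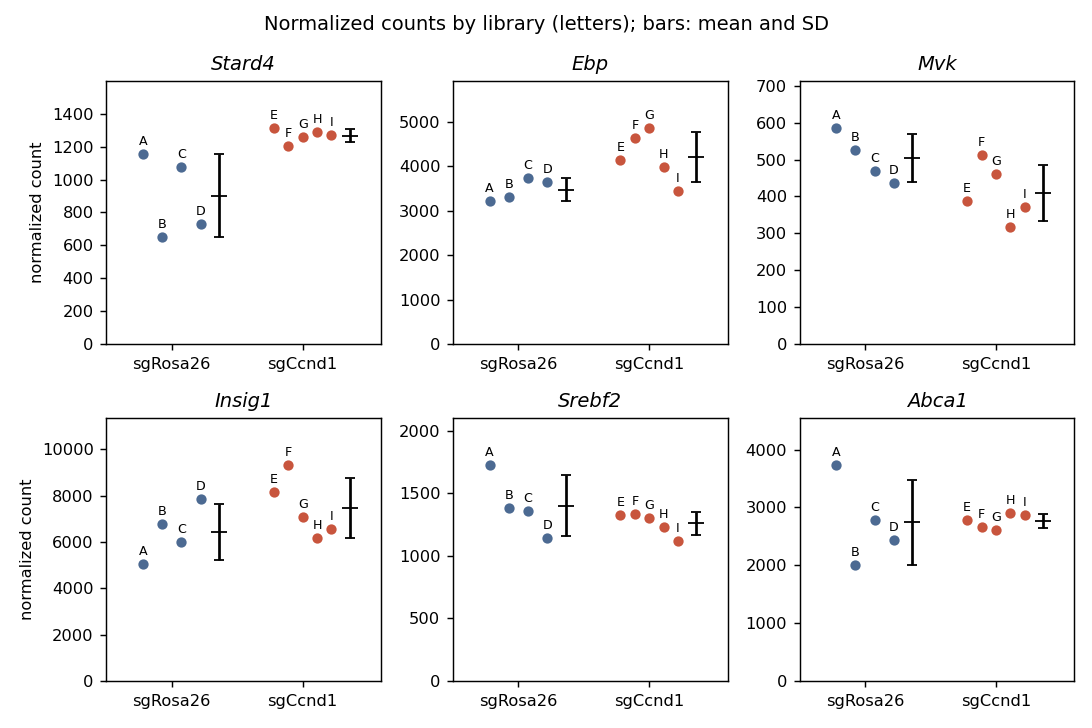
Normalized count (y axis, linear from 0) of 6 cholesterol genes in each library, 1 point and letter per library, sgRosa26 in blue and sgCcnd1 in red; the black bar beside each group is its mean and SD. In Stard4 the red points lie between 1201 and 1310 above all blue points, while in the other 5 genes the groups overlap.

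Esterification and export genes had log2 fold changes of -0.09 to 0.17. Soat2, which esterifies cholesterol for storage and lipoprotein secretion, stood at 1076, 1194, 1125 and 1138 in A to D and at 1075, 1244, 1518, 1223 and 1343 in E to I. F, G, H and I lay above every control and E just below them all, and the log2 fold change was 0.17 (95% interval -0.04 to 0.38, limma adjusted p = 0.541). Abca1, the exporter that loads cholesterol onto apolipoprotein A-I, stood at 3729, 2012, 2786 and 2434 in A to D and at 2779, 2655, 2615, 2895 and 2873 in E to I. The sgCcnd1 values sat together inside the wide control range (SD 126 against 731), and the log2 fold change was 0.05 (95% interval -0.26 to 0.36).

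Abcg5 and Abcg8 encode the partner subunits of the transporter that secretes sterols into bile. Their annotated genes lie head to head on chromosome 17 and overlap (84658174 to 84683011 and 84676302 to 84700333 on GRCm38.p6), so reads of the shared stretch could have been assigned to either. Abcg5 stood at 1380, 1144, 1489 and 1397 in A to D and at 924, 1296, 1443.1, 1270 and 1451 in E to I. Abcg8 stood at 1665, 1357, 1861 and 1503 in A to D and at 1172, 1770, 1876, 1754 and 2010 in E to I. Both were lowest in E and next lowest in B. Over the 9 libraries Pearson's r was 0.88 (exact permutation p = 0.00383) and Spearman's rho 0.80 (exact permutation p = 0.0138). Abcg8 ranked 9 among 12992 genes by r with Abcg5, yet none passed adjustment over those genes (adjusted p = 0.9999). Without E and B, the 2 libraries farthest from the median of Abcg5, r was 0.35. With each group centred on its own mean r was 0.96 over the 9 libraries and 0.76 without E and B. Leaving out these 2 libraries thus lowered r either way, though less in centred values.

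Another 43 genes of the pathway served as a wider list, of which 42 had enough counts (Ch25h did not). None passed the limma, edgeR or DESeq2 threshold. At an unadjusted limma p under 0.05, 2 were higher and 1 lower, 7.14% of the 42, below the 11.0% over all genes tested. Lpcat3, an LXR target that remodels phospholipids, was at 1667 to 2099 in sgRosa26 and 2123 to 2336 in sgCcnd1. It was the 1 gene of the 42 whose groups did not overlap (2.38%, against 3.89% of all genes tested), with a log2 fold change of 0.22 and a limma adjusted p of 0.380. Rabggtb, a subunit of the enzyme that prenylates Rab proteins, differed by 0.33 on the log2 scale (limma adjusted p = 0.373), and Soat1, the cholesterol acyltransferase of most other tissues, by -0.37 (limma adjusted p = 0.354). By group, 8 genes of SREBP processing and sterol-dependent degradation had a median log2 fold change of 0.06, 11 of uptake, lysosomal release and transfer -0.05, 7 of LXR and its targets -0.02, 10 of isoprenoid use 0.12 and 6 of removal by hydroxylation or esterification 0.07.

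The synthesis enzymes varied together from animal to animal. Their median coefficient of variation over the 9 libraries was 17.9%, against 14.2% over all genes tested. Expressed as the mean over the 18 enzymes of the log2 deviation from each gene's own mean, the libraries stood at -0.04, 0.15, 0.11 and -0.14 in A to D and at 0.10, 0.33, 0.11, -0.28 and -0.33 in E to I. The highest library (F) and the 2 lowest (H and I) were all sgCcnd1, and the controls lay between them. The summed hepatocyte markers were also highest in F and lowest in H and I, and their part in this movement was not tested. In F all 18 enzymes were above their own mean and 8 reached their highest value. In G all 18 were above their mean as well, but only 1 was highest there. In I 17 of the 18 were below their mean and 8 reached their lowest value, and in H 16 were below and 5 lowest.

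**Figure D3:**
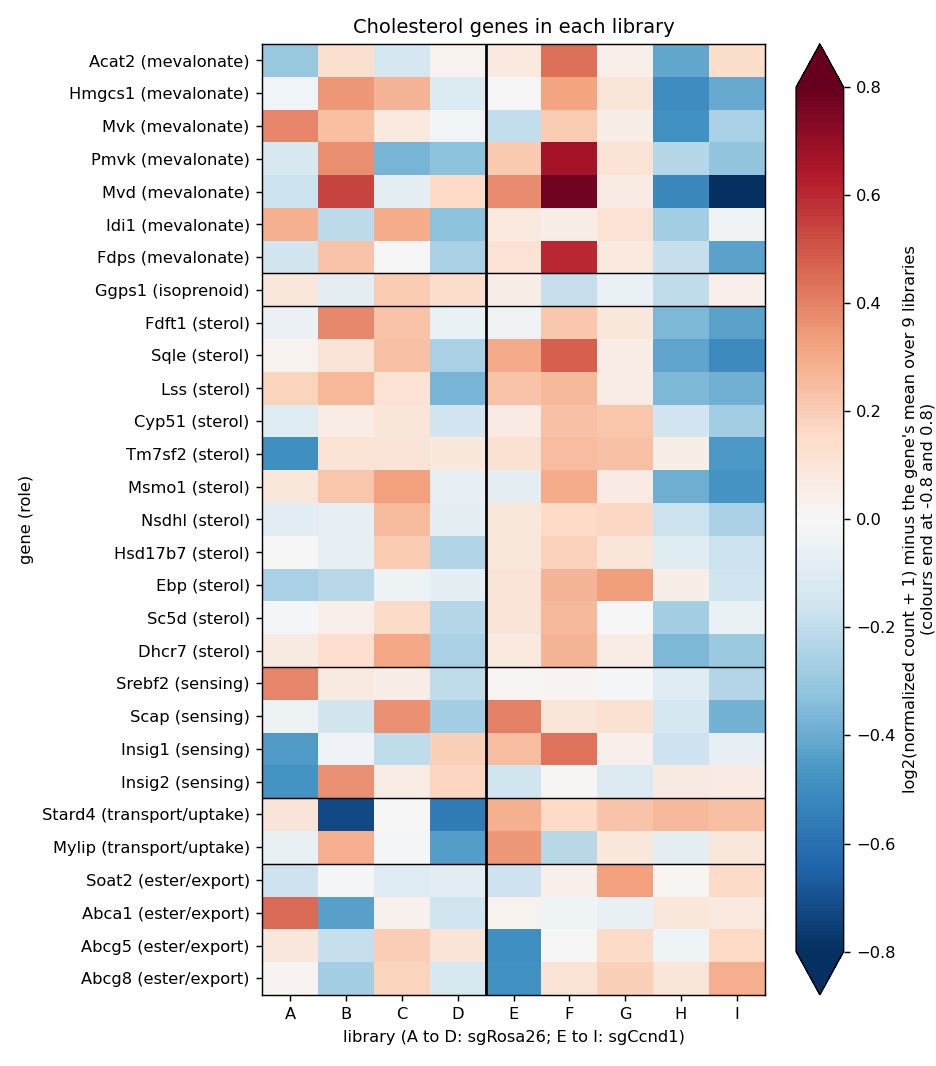
Deviation of log2(normalized count + 1) from each gene's mean over 9 libraries (colour), for 29 cholesterol genes (rows, grouped by role) in the sgRosa26 libraries (A to D) and, right of the vertical line, the sgCcnd1 libraries (E to I). Library F is red and H and I mostly blue through the mevalonate and sterol blocks, while Stard4 is deep blue in B and D and Abcg5 and Abcg8 are blue in E.

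Pairwise correlations describe this common movement. Over the 153 pairs of the 18 enzymes, the median Pearson r across the 9 libraries was 0.66, with 149 pairs positive and 102 above 0.5. The median over all pairs of genes tested was -0.0029. With each group centred on its own mean, so that a group difference could not contribute, the enzyme median was 0.72 and 151 pairs were positive. Without library H it was 0.62, and without both H and I it was 0.50, with 138 of the 153 pairs positive. Values of one library share its depth and its single size factor. Depth was lowest in I (10.8 M reads), A (12.2 M) and H (15.5 M) and highest in E (20.2 M) and F (18.1 M). The part of depth in the common movement was not tested. Over all 406 pairs of the 29 genes the median was 0.25.

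**Figure D4:**
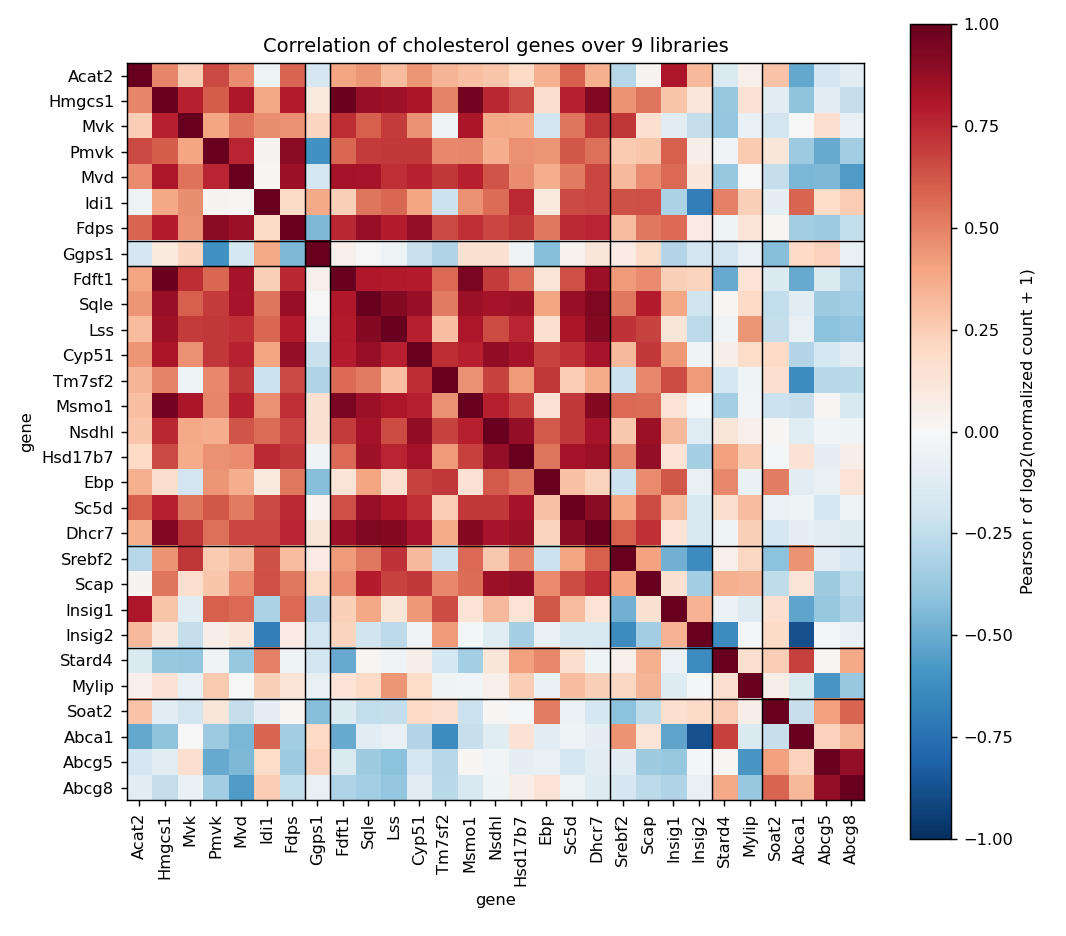
Pearson r of log2(normalized count + 1) over 9 libraries for every pair of the 29 cholesterol genes (both axes list the genes in role order, lines divide the roles, red is positive and blue negative). The mevalonate and sterol blocks are mostly red, with a median r of 0.66 over the 153 enzyme pairs, while Ggps1, Insig2 and the transport and export genes are mostly pale or blue against them, with exceptions such as Abca1 with Idi1 (0.58) and Soat2 with Ebp (0.51).

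Within the enzymes the tie to the rest varied. Sqle had the highest median r with the other 17 enzymes (0.83), followed by Dhcr7 (0.82), Hmgcs1, Msmo1 and Cyp51 (0.78, 0.78 and 0.77). Acat2 and Ebp had the lowest (0.35 each), and Idi1 (0.40), Mvk (0.47) and Tm7sf2 (0.48) were next. With group-centred values the order at the low end was Idi1 (0.41), Acat2 (0.48), Tm7sf2 (0.54), Ebp (0.60) and Mvk (0.67), and Sqle was again the highest (0.87). Neighbouring steps of the mevalonate pathway were not always close, since r between Mvd and Idi1 was 0.01.

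Hmgcs1 was taken as the reference gene for a test over all 12992 other genes, with an exact two-sided permutation p for each. Of the 28 other cholesterol genes, 11 had a positive r at an unadjusted p under 0.05 (39.3%), against 3.48% of all genes. All 11 were synthesis enzymes, and r was positive for 17 of the 17 other enzymes. None of the 12992 genes passed Benjamini-Hochberg adjustment, and the lowest adjusted p of a cholesterol gene was 0.193. With Spearman's rho, or with group-centred values, 12 of the 28 had an unadjusted exact p under 0.05 (42.9%), against 2.36% and 2.40% of all genes. A negative r at that level was found for no cholesterol gene, against 3.47% of all genes by Pearson's r, 2.51% by rho and 2.56% with group-centred values. Without library H, and likewise without I, 9 of the 28 had a positive r at an unadjusted exact p under 0.05, against 373 of 13024 and 307 of 13001 genes in those fits.

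Fdft1 had the largest r of all 12992 genes with Hmgcs1, 0.98 (exact permutation p = 6.338e-05, adjusted p = 0.193), with a rho of 0.97 (exact permutation p = 0.0001653). Msmo1 ranked 3 (r = 0.96, rho = 0.83, exact permutation p = 0.000345 and 0.00827, adjusted 0.497 and 0.812), and Dhcr7 ranked 7 (r = 0.92, rho = 0.88, exact permutation p = 0.000678 and 0.00308, adjusted 0.573 and 0.812). Sqle ranked 20 (r = 0.87), Lss 35 (0.84), Cyp51 70 (0.82), Mvd 80 (0.81) and Fdps 114 (0.78). These 8 genes span the pathway from the mevalonate steps to the last reductase. Mvk, Sc5d and Nsdhl, with r of 0.78, 0.78 and 0.75, complete the 11.

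On the log2 scale, libraries H and I lay farthest from the median of Hmgcs1, and both were at its low end. Without them r stayed positive for all 11 genes and above 0.5 for 9 of them, over the 7 libraries left. It was 0.96 for Fdft1, 0.89 for Msmo1, 0.81 for Dhcr7, 0.75 for Fdps, 0.72 for Sc5d, 0.67 for Cyp51, 0.63 for Sqle, 0.62 for Lss and 0.50 for Mvd. For Mvk it was 0.34 and for Nsdhl 0.45, so those relations rest in large part on H and I.

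**Figure D5:**
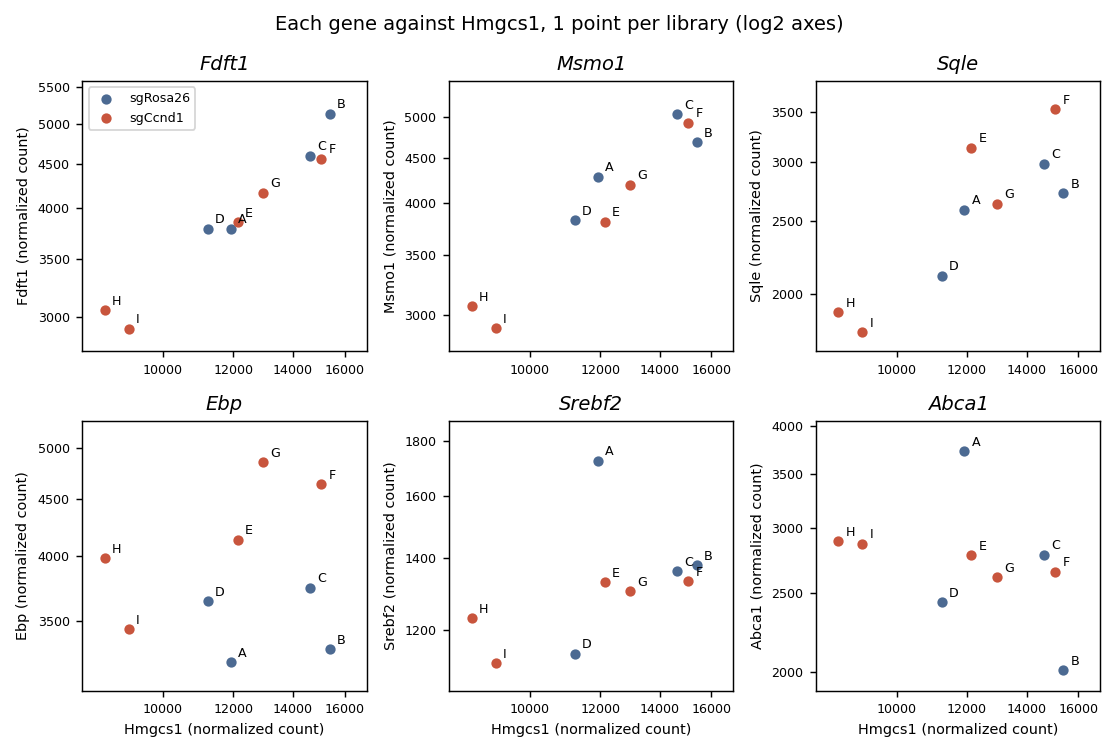
Normalized count of 6 cholesterol genes (y axes) against that of Hmgcs1 (x axes), both on log2 scales, with 1 lettered point per library, sgRosa26 blue and sgCcnd1 red. Fdft1, Msmo1 and Sqle climb with Hmgcs1 (r = 0.98, 0.96 and 0.87) from H and I at the lower left, while Ebp (0.17, or 0.64 with each group centred on its mean), Srebf2 (0.45) and Abca1 (-0.40) scatter more.

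Outside the enzymes, none of the 11 genes had an unadjusted p under 0.05 with Hmgcs1, and their r ran from -0.40 (Abca1, exact permutation p = 0.288) to 0.53 (Scap, exact permutation p = 0.143). The transcript of Srebf2 had an r of 0.45 (exact permutation p = 0.229, adjusted p = 0.770) and a rho of 0.67 (exact permutation p = 0.0589), and r was 0.07 without H and I. Insig1 was at 0.28 and Stard4 at -0.38 over the 9 libraries. Library A held the highest Srebf2 count, 1725, with an Hmgcs1 count near the middle, 11920. Scap was closer to 2 sterol enzymes, with an r of 0.88 to Hsd17b7 and 0.86 to Nsdhl, and Insig1 to Acat2 (0.81), pairs picked out after their values were seen. Insig2 ran opposite to Abca1 (r = -0.88) and to Idi1 (-0.69), again picked out afterwards.

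The 10 genes outside the list with the largest r to Hmgcs1 were Cers5 (0.97), Tff1 (0.96), Cradd, 4930483K19Rik, Myct1, Cdpf1, Rarb, Cnot9, Cfap119 and Fam219aos (0.88). Their adjusted exact permutation p was 0.143 or higher, and 4930483K19Rik overlaps Lss. From lists of genes that follow feeding, fasting and the clock, the 2 with the largest absolute r to Hmgcs1 were taken in each. They were Pnpla3 (0.63) and Elovl6 (0.53) for feeding, Cpt1a (-0.45) and Fgf21 (-0.38) for fasting, and Clock (-0.75) and Tef (-0.51) for the clock. Clock alone had an unadjusted exact permutation p under 0.05, 0.0216 (rho -0.72, exact permutation p = 0.0369), with an adjusted p of 0.688. Without H and I, r was -0.68 for Clock, -0.024 for Tef, 0.23 for Pnpla3, 0.080 for Elovl6, -0.067 for Cpt1a and -0.28 for Fgf21. Food intake is not in the labels either, and its part and that of the time of day in the common movement of the enzymes was not tested.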

How the data were processed

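Poly(A) RNA of 9 liver samples was measured by RNA-seq, 4 with sgRosa26 and 5 with sgCcnd1. Per the submitters' processing notes the tools were Trim Galore 0.6.7, HISAT2 2.2.1, featureCounts 2.0.3, FastQC 0.74, MultiQC and DESeq2 2.11.40.8, on mm10 (GRCm38). The strand setting and annotation are not given in the sources used here. The deposited table gives a never-negative expression signal per gene, called normalized counts. In each library 100% of its values were whole multiples of the value of 1 read (tolerance 0.05 reads), that is, read counts divided by 1 size factor. Depth was 10.8 to 20.2 M reads (M, mega), and precision from depth covers counting error only. Columns were matched to a group and carry no replicate number. The table also holds 1319 genes without a symbol and 7657 at 0 everywhere.

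Genes averaging 10 or more normalized counts, 12993 in all, were put on a log2(normalized count + 1) scale and compared with limma 3.58.1 (R 4.3.3, eBayes with trend, two-sided, Benjamini-Hochberg over all genes, threshold 0.05). On that scale the change of a low gene is understated. Recovered reads were also tested with edgeR 4.0.16 (quasi-likelihood, TMM) and DESeq2 1.42.0, which called 1 and 117 of the 12993 genes (0.00770% and 0.900%). Correlations with Hmgcs1, taken as reference because it encodes an early step, used all 362880 pairings of 9 libraries (smallest possible p 2.756e-06), or 2880 within groups for centred values (0.0003472). The procedures were tested on simulated data. Named genes are all 29 members, other pathway genes at an unadjusted p under 0.05 or without overlap, 2 state genes per list and the 10 genes closest to Hmgcs1. The members and lists were chosen with earlier results of these data known. Alternatives were other pseudocounts, filters, scalings, eBayes settings, array weights, count models, group-centring, ranks and leaving out libraries.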

Additional observations from a re-analysis of the deposited data

Results flagged for a closer look

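In Tm7sf2 the sgRosa26 library A stood apart at 2010 normalized counts, with the other 3 controls between 2997 and 3043. In Nsdhl the sgRosa26 library C stood apart at 2749, with the other 3 controls between 2169 and 2207. Each was set apart by a gap to its nearest neighbour that takes up nearly the whole range of its group (Dixon's 95% criterion). These were 2 of 58 gene and group combinations examined, where chance gives about 1 in 20, or 2.9.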

How the results depend on the processing

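No paired analysis was possible because table columns name a group and an animal without a number shared across groups. No alternative brought a cholesterol gene past the adjusted threshold. Of 551 alternative fold changes (19 fits for each of 29 genes), 34 had the opposite sign, in 15 genes whose log2 fold changes were at most 0.20 in size. 14 genes, Stard4, Ebp, Mvk and Hmgcs1 among them, kept their sign. Quantile normalization turned Fdps to -0.037, Cyp51 to -0.044, Hsd17b7 to -0.024, Sc5d to -0.048, Scap to -0.028 and Abca1 to -0.031, and Sc5d was -0.0136 with a common 75th percentile and -0.0140 with array weights. Leaving out 1 library gave ranges across 0 for Mvd (-0.42 to 0.065), Idi1 (-0.14 to 0.072), Fdps (-0.061 to 0.20), Sqle (-0.17 to 0.078), Lss (-0.23 to 0.00048), Cyp51 (-0.013 to 0.11), Tm7sf2 (-0.060 to 0.21), Nsdhl (-0.050 to 0.075), Hsd17b7 (-0.028 to 0.12), Sc5d (-0.052 to 0.090), Scap (-0.052 to 0.17), Insig2 (-0.22 to 0.059), Mylip (-0.028 to 0.22), Abca1 (-0.088 to 0.21) and Abcg5 (-0.17 to 0.018). Ranges on 1 side of 0 were 0.035 (without F) to 0.25 (H) for Acat2, -0.32 (F) to -0.12 (H) for Hmgcs1, -0.40 (F) to -0.22 (H) for Mvk, 0.054 (F) to 0.36 (B) for Pmvk, -0.21 (B) to -0.12 (C) for Ggps1, -0.31 (F) to -0.15 (B) for Fdft1, -0.36 (F) to -0.17 (I) for Msmo1, 0.22 (G) to 0.34 (I) for Ebp, -0.22 (D) to -0.032 (C) for Dhcr7, -0.23 (D) to -0.033 (A) for Srebf2, 0.11 (A) to 0.33 (D) for Insig1, 0.39 (B) to 0.66 (A) for Stard4, 0.10 (G) to 0.23 (E) for Soat2 and 0.016 (B) to 0.22 (E) for Abcg8. Counts at an unadjusted limma p under 0.05 were 1 higher and 3 lower with quantile normalization, 0 lower with array weights, and 1 to 3 higher and 0 to 3 lower when 1 library was left out. The median r of enzyme pairs was 0.72 with group-centred values, 0.50 without H and I, and 0.59 to 0.72 when 1 library was left out. The causes were not tested. Leaving out H and I together, Abcg5 as a reference, and centring by group for that pair and for each enzyme, were added after the data had been seen. The precision that 4 and 5 libraries give is that of the 95% intervals.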
